A study of Arabidopsis thaliana with 27 samples.

Results

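Roots of ICT1-8098 and ICT1-2, a pair of Arabidopsis lines labelled as overexpressing the S30 gene, were compared with each other in 200 µM I3C. The comparison took every library of both lines at that dose, 3 labelled ICT1-8098_200 and 3 labelled ICT1-2_200, which is 6 of the 27 libraries of the series, and it covered all genes. I3C, indole-3-carbinol, is a breakdown product of indole glucosinolates, the sulfur-rich defence compounds of cabbage relatives. S30 is a protein of the small ribosomal subunit. Both lines carry it under the 35S promoter, a viral promoter that is active in most plant tissues. ICT1-8098 is a homozygous line from a FOX overexpression library, in which each plant carries a full-length cDNA. ICT1-2 is a homozygous line with a transgene that the study's laboratory made. Each group therefore rests on 1 line, and an effect of S30 cannot be told apart from any other difference between these lines. Seedlings were 10 days old and grown in liquid medium, and roots were cut after 2 h in I3C, from 20 seedlings per treatment. The wild type Col-0 was treated in the same way (Col_200), and control roots of each line received the solvent DMSO (NT in the group names). The series also holds Col-0 and ICT1-2 in 400 µM I3C (Col_400, ICT1-2_400) and leaf-wounded Col-0 (Col_w, 8 h). They enter the fit that estimates the spread. The labels do not say whether replicates are separate cultures, and the spread behind each p-value may therefore be technical.

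Damaged leaves and roots release indoles such as I3C from glucosinolates, and the hormone jasmonate sets much of the defence that follows. JAZ proteins (named TIFY here) repress jasmonate response genes and are themselves induced by the hormone, so their transcripts are commonly read as a sign of the response. Flavonols are phenylpropanoids made by a short chain of enzymes that starts with chalcone synthase, and in Arabidopsis the factor MYB12 activates this chain in roots.

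The 6 libraries held 12364761 to 17433968 reads. No library duplicated another, since the smallest chi-square per gene between a pair was 9.82. Spearman correlations were 0.962 to 0.990 within a line and 0.963 to 0.983 between lines. The first principal component of the 6 libraries (37.7% of the variance) set ICT1-8098_200 replicate 2 (0.75) farthest from replicate 4 of the same group (-0.42), and the second (25.0%) set the lines apart. Root cell type markers were detected in both lines. The summed normalized counts of 11 tested endodermis and Casparian strip markers ranged from 3158 to 4245 in ICT1-8098 and from 3172 to 4122 in the libraries labelled ICT1-2. No marker was called among these, nor among 12 root hair, 11 vascular, 7 meristem and cap and 17 shoot photosynthesis markers. Without I3C, 3 of the shoot photosynthesis markers were called lower in ICT1-8098, beside 2.06% of all genes tested, and their list had a median of -1.01. In bulk roots, fewer cells of a type and less RNA per cell cannot be told apart.

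Of 21180 genes tested, 129 (0.609%) were called between the lines at a Benjamini-Hochberg adjusted p under 0.05 in limma, 48 higher (0.227%) and 81 lower (0.382%) in ICT1-8098. The difference was over 1 on the log2 scale for 95 of them and over 2 for 27. The median log2 difference was 1.2 among the higher genes and -1.41 among the lower genes, beside 0.00335 over all genes tested. In 128 of the 129 the libraries of the lines did not overlap, which held for 15.6% of all genes tested. The authors' deposited table calls 380 genes in this comparison, 155 higher and 225 lower in ICT1-8098 (1.35% of its genes with a p-value), and all 129 are among them in the same direction. Those calls rest on the same libraries and are not independent support. A fit of the 6 libraries alone called 0 genes (2261 had an unadjusted p under 0.05, and the smallest adjusted p was 0.0692), so every call below draws on the spread estimated over all groups of the series. Leaving out 1 library left 13 calls without ICT1-2_200 replicate 4 and 155 without ICT1-8098_200 replicate 4. It left 74 and 43 without ICT1-2_200 replicates 2 and 5, and 42 and 60 without ICT1-8098_200 replicates 2 and 3. Of the 31 called genes chosen by rule, RPS30A, GSTU17, QQS, AT5G52710, AT5G52680, TIFY10A and LHT7 were called under each of 16 settings, every one tried except the fit of the 6 libraries alone.

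In what follows, levels are normalized read counts, given for replicates 2, 3 and 4 of ICT1-8098_200 and then for replicates 2, 4 and 5 of ICT1-2_200. Differences are of log2(normalized count + 1), ICT1-8098 minus ICT1-2, with their standard error (SE) and the adjusted p of limma. Comparisons with Col_200 share these libraries and are only set side by side, against a background of 24.2% of genes called for ICT1-8098_200 and 21.6% for the libraries labelled ICT1-2_200. The shoot photosynthesis markers summed to 3786 to 11116 in Col_200, 1179 to 1300 in ICT1-8098_200 and 1326 to 1608 in ICT1-2_200. Their median differences from Col_200 were -2.94 and -2.89. Whether the tissue of the Col_200 libraries differed was not tested.

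The S30 genes were read first, as they check the labels. RPS30A (AT2G19750, TAIR10 chromosome 2, 8514899 to 8516138) stood at 8861, 7977 and 8071 in ICT1-8098 and at 3143, 2493 and 2017 in the libraries labelled ICT1-2. Every ICT1-8098 library was above every other library at this dose, and the lines differed by 1.72 (SE 0.21, adjusted p = 0.000464). Col_200 stood at 2916, 2691 and 2979, so the libraries labelled ICT1-2 were level with the wild type (-0.19, adjusted p = 0.575) while ICT1-8098 was 1.54 above it (adjusted p = 1.32e-05). The label of ICT1-2 as an S30 overexpressor is thus not seen in this gene's count, in I3C or in DMSO. Summed over the 3 S30 genes, counts were 8326 to 10192 in ICT1-2_200 and 9302 to 14438 in Col_200. In DMSO the sums were 8938 to 9413 in ICT1-2_NT and 9637 to 10218 in Col_NT. The difference from Col_NT was not tested. Without I3C, RPS30A was at 4961, 5672 and 6598 in ICT1-8098 and at 2048 and 2811 in ICT1-2, a difference of 1.25 (adjusted p = 0.0038).

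The other S30 genes did not pass the test between the lines. AT4G29390 (chromosome 4, 14464856 to 14466029) stood at 662, 814 and 1078 in ICT1-8098 and at 1030, 1087 and 1023 in the libraries labelled ICT1-2 (-0.33, adjusted p = 0.607). AT5G56670 (chromosome 5, 22935211 to 22936084) stood at 4546, 5141 and 6281 against 6019, 5722 and 5286 (-0.10, adjusted p = 0.939). The 3 genes encode near-identical proteins, and reads that match more than 1 of them may have been counted differently, so their levels are uncertain to that extent. Among 302 tested genes annotated as ribosomal proteins, RPS30A was the 1 gene called higher and 0 were called lower, beside 0.227% and 0.382% of all genes tested. Their median difference was -0.16, with 263 below 0, beside a median of 0.00335 and 10382 of 21180 below 0 over all genes tested.

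**Figure D1:**
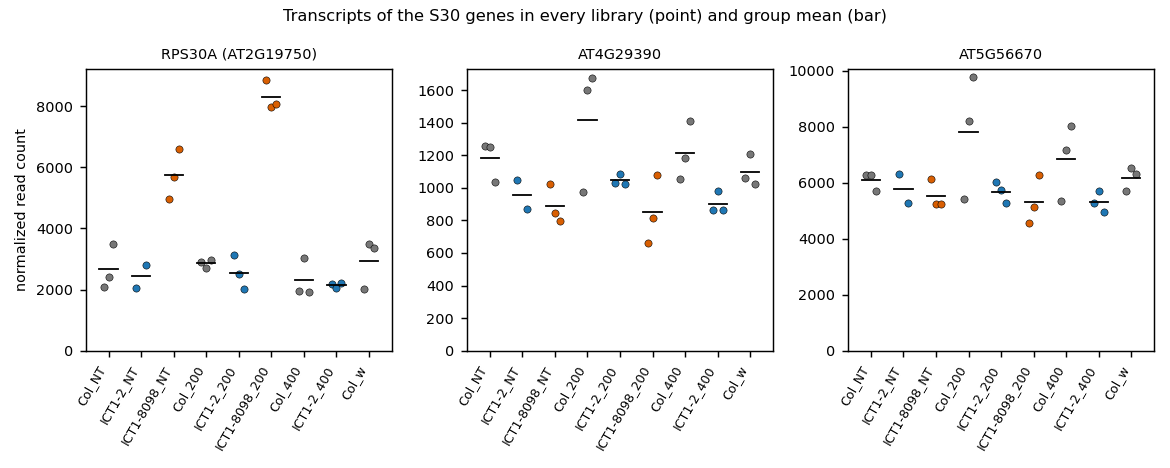
Normalized read counts (linear axis from 0) of the 3 S30 genes in every library (points) of each group, with group means (bars). RPS30A is highest in ICT1-8098_200, at 7977 to 8861, and the groups labelled ICT1-2 lie among the Col-0 groups, while the other S30 genes show no such separation.

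QQS (AT3G30720), an orphan gene without relatives in other plants that acts on starch and protein content, showed the largest difference. It stood at 11.7, 9.36 and 4.72 in ICT1-8098 and at 414, 863 and 642 in the libraries labelled ICT1-2, a difference of -6.07 (SE 0.74, adjusted p = 0.000464), or 67.3-fold. The wild type in I3C had 0, 5.54 and 1.21, which puts the high level in the libraries labelled ICT1-2. The same order was found without I3C, at 5.83, 16.3 and 10.3 against 1188 and 1460 (-6.90, adjusted p = 3.63e-05). In 400 µM I3C the libraries labelled ICT1-2 had 595, 828 and 728.

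Some genes of flavonol synthesis were higher in ICT1-8098. Of 25 tested genes of flavonoid and general phenylpropanoid synthesis, 7 were called higher and 1 lower, beside 0.227% and 0.382% of all genes tested, and the median difference was 0.51. This list was drawn up after the values had been seen, so its count is a description only. It begins with CHS, chalcone synthase (AT5G13930), at 5057, 4221 and 2962 in ICT1-8098 and at 1257, 1277 and 2705 in the libraries labelled ICT1-2 (1.29, SE 0.25, adjusted p = 0.0189). The lowest ICT1-8098 library was only just above the highest ICT1-2 library, replicate 5.

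Chalcone isomerase CHI1 and its non-catalytic relative CHI3 differed by 1.26 (adjusted p = 0.0416) and 1.28 (adjusted p = 0.0115). FLS1, flavonol synthase, which makes the flavonol itself, stood at 2359, 1783 and 1062 in ICT1-8098 and at 416, 448 and 874 in ICT1-2 (1.59, SE 0.33, adjusted p = 0.0263). CYP75B1, flavonoid 3'-hydroxylase, had 149, 110 and 46.0 against 13.0, 23.8 and 41.6 (1.91, adjusted p = 0.0419). In all of these ICT1-8098_200 replicate 2 was the highest library and ICT1-2_200 replicate 5 the highest of its line. MYB12, the activator, differed by 0.999 (adjusted p = 0.0397), at 790, 563 and 472 against 233, 292 and 384. UGT91A1, a glycosyltransferase that acts on flavonols, had 270, 113 and 86.1 against 17.9, 11.9 and 58.5 (2.51, adjusted p = 0.0188).

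F3H, flavanone 3-hydroxylase, had 57.8, 54.5 and 30.7 against 6.98, 15.3 and 31.2 and was not called (1.54, adjusted p = 0.481). PAL2, one of the enzymes that opens phenylpropanoid metabolism as a whole, was the member called lower, at 1637, 2658 and 2534 against 5327, 4810 and 4413 (-1.12, adjusted p = 0.00441). Outside the list, and picked from the called genes after their values were seen, the glycosyltransferase gene UGT78D4 (1.82), the phenylalanine synthesis gene ADT3 (0.73) and the chorismate mutase gene CM1 (0.51) were higher. KAT5, a thiolase gene named by rule, had 600, 484 and 270 against 77.8, 121 and 189 (1.81, adjusted p = 0.0107). The calls depended on single libraries: without ICT1-2_200 replicate 4 or ICT1-8098_200 replicate 2, 0 of the flavonoid genes were called higher, and 1 and 2 were without ICT1-2_200 replicate 2 and ICT1-8098_200 replicate 3. The median stayed between 0.40 and 0.81 in all 6 cases.

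Against Col_200, the difference of the list's members had a median of 0.26 in ICT1-8098 and -0.29 in the libraries labelled ICT1-2. FLS1 was 1.23 above the wild type in ICT1-8098 (adjusted p = 0.00985) and -0.36 from it in the other line (adjusted p = 0.478). UGT91A1 lay below the wild type in both, at -1.23 (adjusted p = 0.0728) and -3.74 (adjusted p = 6.11e-06). Without I3C, CHS again separated the lines (1.42, adjusted p = 0.00544). It was the 1 member of the list called, beside 2.7% of all genes tested, and the list's median was 0.39.

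**Figure D2:**
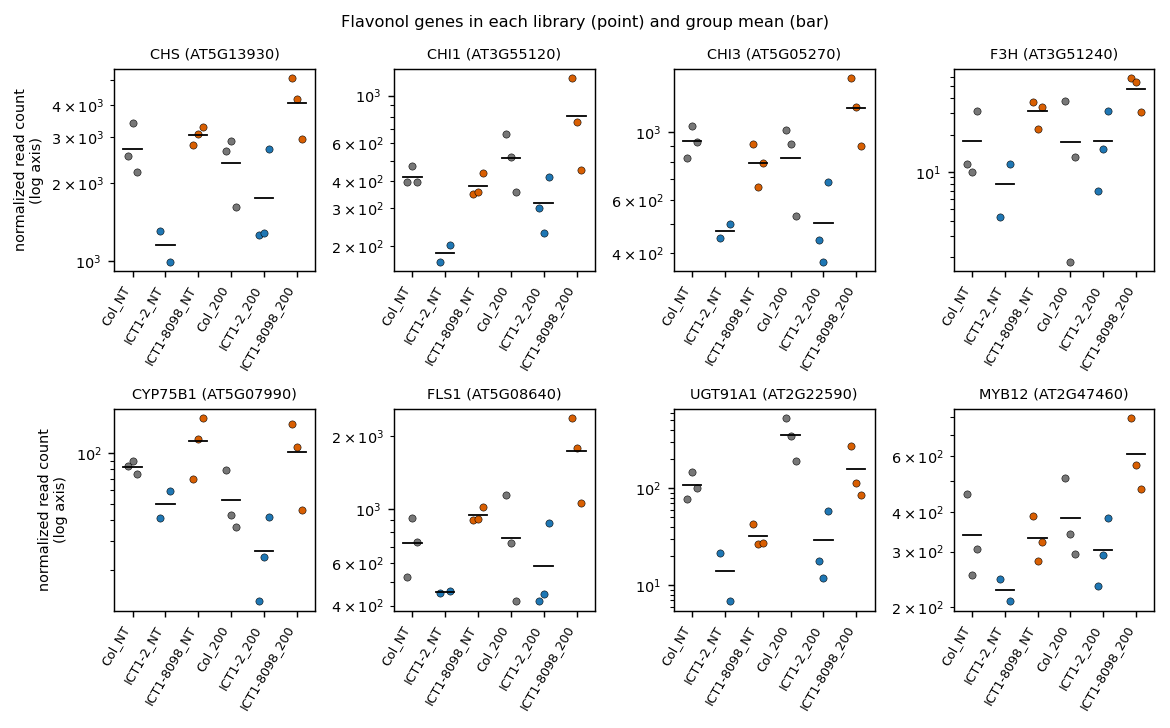
Normalized read counts (log axis) of 8 flavonol genes in every library (points) of the lines and of Col-0, without and with 200 µM I3C, with group means (bars). ICT1-8098_200 has the highest mean for CHS, CHI1, CHI3, FLS1 and MYB12, and its 3 libraries spread widely (FLS1 from 1062 to 2359).

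The windows before the start of the called genes were searched for letters that factors of these pathways are known to bind. The 250 bases before each start, on the gene's strand, were taken from RefSeq TAIR10.1, which matched all 129 called genes. For the MYB recognition element of flavonol regulators the search took ACCAAAC as the basic form, a form changed near its end that reads ACCAACC, a form changed in its middle that reads ACCTAAC, and the form with both changes, which reads ACCTACC. The G-box was searched as CACGTG, and the W-box of WRKY factors as TTGACC in one form with TTGACT as the other form. All were counted on both strands, and none of these strings contains another. The following 3 windows are of flavonol genes that were higher in ICT1-8098, and the last is of a gene that was lower, with the matches in capitals: CHI3 at chr5:1563036-1563285 (plus strand), CHS at chr5:4488226-4488475 (plus), FLS1 at chr5:2803583-2803832 (plus), and VBF at chr1:21063048-21063297 (minus). Lines run 5′ to 3′.
CHI3: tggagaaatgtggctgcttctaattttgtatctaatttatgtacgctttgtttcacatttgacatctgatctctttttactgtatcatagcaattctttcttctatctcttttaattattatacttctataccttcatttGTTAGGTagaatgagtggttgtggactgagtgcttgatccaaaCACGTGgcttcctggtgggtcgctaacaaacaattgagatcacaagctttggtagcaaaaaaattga
CHS: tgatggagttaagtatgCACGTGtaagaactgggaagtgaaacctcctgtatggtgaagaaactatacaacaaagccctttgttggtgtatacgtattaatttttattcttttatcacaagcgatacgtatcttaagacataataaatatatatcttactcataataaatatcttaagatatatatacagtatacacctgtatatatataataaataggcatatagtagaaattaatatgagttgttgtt
FLS1: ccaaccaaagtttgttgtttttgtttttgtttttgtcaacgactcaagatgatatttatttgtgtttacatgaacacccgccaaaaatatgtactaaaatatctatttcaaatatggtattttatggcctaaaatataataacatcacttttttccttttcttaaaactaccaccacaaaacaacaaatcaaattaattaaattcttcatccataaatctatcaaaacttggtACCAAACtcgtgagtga
VBF: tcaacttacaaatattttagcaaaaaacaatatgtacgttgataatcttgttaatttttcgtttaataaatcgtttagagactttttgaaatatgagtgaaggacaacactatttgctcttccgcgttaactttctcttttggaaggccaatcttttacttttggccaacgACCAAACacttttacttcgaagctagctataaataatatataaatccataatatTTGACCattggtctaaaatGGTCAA

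CHI3 holds 1 MYB recognition element and 1 G-box, CHS 1 G-box and FLS1 1 MYB recognition element close to the start. VBF holds 2 W-boxes and 1 MYB recognition element. The MYB recognition element was found in 27.1% of the 48 windows of genes higher in ICT1-8098, 16.0% of the 81 of genes lower and 14.2% of 21046 windows of genes tested. The G-box was found in 16.7%, 3.70% and 7.16% of the same windows, and the W-box in 25% of the higher, 50.6% of the lower and 28.8% of all. Of the 7 flavonoid genes called higher, 2 held a MYB recognition element and 3 a G-box, and of the 6 rapid regulators called lower 1 held a W-box (16.7%). These are matches of letters, and no binding was measured.

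Some genes of the jasmonate response were lower in ICT1-8098 than in the libraries labelled ICT1-2. Of 22 tested jasmonate and wound genes, 5 were called lower, beside 0.382% of all genes tested, and 0 higher. All 22 differences lay below 0, as did 10382 of all 21180, and the median was -1.06. TIFY10A (JAZ1), a repressor of the jasmonate response, stood at 1486, 1957 and 1513 in ICT1-8098 and at 3550, 4853 and 4647 in ICT1-2 (-1.39, SE 0.20, adjusted p = 0.00209). TIFY11A (JAZ5) had 71.2, 89.3 and 33.0 against 171, 481 and 548 (-2.56, SE 0.44, adjusted p = 0.0101), with ICT1-2_200 replicate 2 the lowest of its line. TIFY11B (JAZ6) differed by -1.16 (adjusted p = 0.0107). On the side of synthesis, AOC3, an allene oxide cyclase with close copies in the genome, and 4CLL5 (OPCL1), which activates the jasmonate precursor, differed by -1.20 (adjusted p = 0.0192) and -1.16 (adjusted p = 0.0197).

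Against Col_200, TIFY10A and TIFY11A were higher in the libraries labelled ICT1-2, by 1.31 (adjusted p = 6.09e-05) and 2.88 (adjusted p = 4e-05), while in ICT1-8098 the differences were -0.09 (adjusted p = 0.787) and 0.32 (adjusted p = 0.636). Without I3C the same 22 genes had a median of -1.24. Beside 2.06% of all genes tested, 14 of them were called lower in ICT1-8098. TIFY10A and TIFY11A were among those, at -2.11 (adjusted p = 1.35e-05) and -3.23 (adjusted p = 0.000452). Leaving out 1 library in I3C left between 1 (without ICT1-2_200 replicate 4) and 8 of them called (without ICT1-2_200 replicate 2), with 2 without ICT1-2_200 replicate 5 and 3 to 4 in the other cases. The median stayed between -1.09 and -0.86.

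Some rapidly induced regulators were lower in ICT1-8098. The list of 33 tested genes was drawn up after the values had been seen, and 6 were called lower, beside 0.382% of all genes tested, and 0 higher. Of the 33 differences 32 lay below 0, as did 10382 of all 21180, and the median was -1.06. WRKY40, a factor that represses defence genes and is itself induced within minutes by elicitors, stood at 224, 375 and 269 in ICT1-8098 and at 1500, 2794 and 2294 in ICT1-2 (-2.91, SE 0.49, adjusted p = 0.0101), a 7.50-fold difference. Col_200 stood at 371, 938 and 718. Without I3C, WRKY40 was at 40.0, 44.7 and 87.4 against 1855 and 2145 (-5.18, adjusted p = 1.29e-05), and Col_NT at 121, 107 and 321. The libraries labelled ICT1-2 thus overlapped with and without I3C, and every ICT1-8098 library was higher in I3C than any without it.

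ERF018, an ethylene-response-type factor, had 14.2, 17.0 and 14.2 against 46.9, 229 and 120 (-2.77, adjusted p = 0.0188). CAF1-9, a deadenylase subunit that shortens mRNA tails, had 344, 279 and 126 against 1093, 1372 and 853 (-2.24, adjusted p = 0.0107). ERF2 differed by -1.11 (adjusted p = 0.0188), the touch-induced calmodulin-like gene CML24 by -1.03 (adjusted p = 0.0437) and the kinase CPK29 by -1.06 (adjusted p = 0.0289). Without I3C, 25 of the 33 were called lower, beside 2.06% of all genes tested, and the median was -2.19. Without ICT1-2_200 replicate 4, 0 of the 6 were called in I3C, and 2 to 4 of the list were without any other single library.

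Other defence lists held few calls, beside 0.609% of all genes tested called in either direction. Of 17 tested salicylate and pathogen defence genes, 1 was called, SARD1, a factor for salicylate synthesis, at 98.9, 128 and 61.3 against 214, 317 and 359 (-1.65, adjusted p = 0.0472), and the list's median was -0.69. It was not called without any of the 6 libraries in turn. Of 18 ethylene genes, ERF2, counted above, was the 1 called and the median was -0.42, which became -0.18 without ICT1-8098_200 replicate 2. The next 2 genes were picked after their values were seen. CNGC19, a calcium channel gene, had 55.3, 86.0 and 30.7 against 152, 297 and 508 (-2.41, adjusted p = 0.0283). PSK2, a precursor of the peptide phytosulfokine, had 67.9, 74.9 and 41.3 against 155, 317 and 332 (-2.08, adjusted p = 0.0151).

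**Figure D3:**
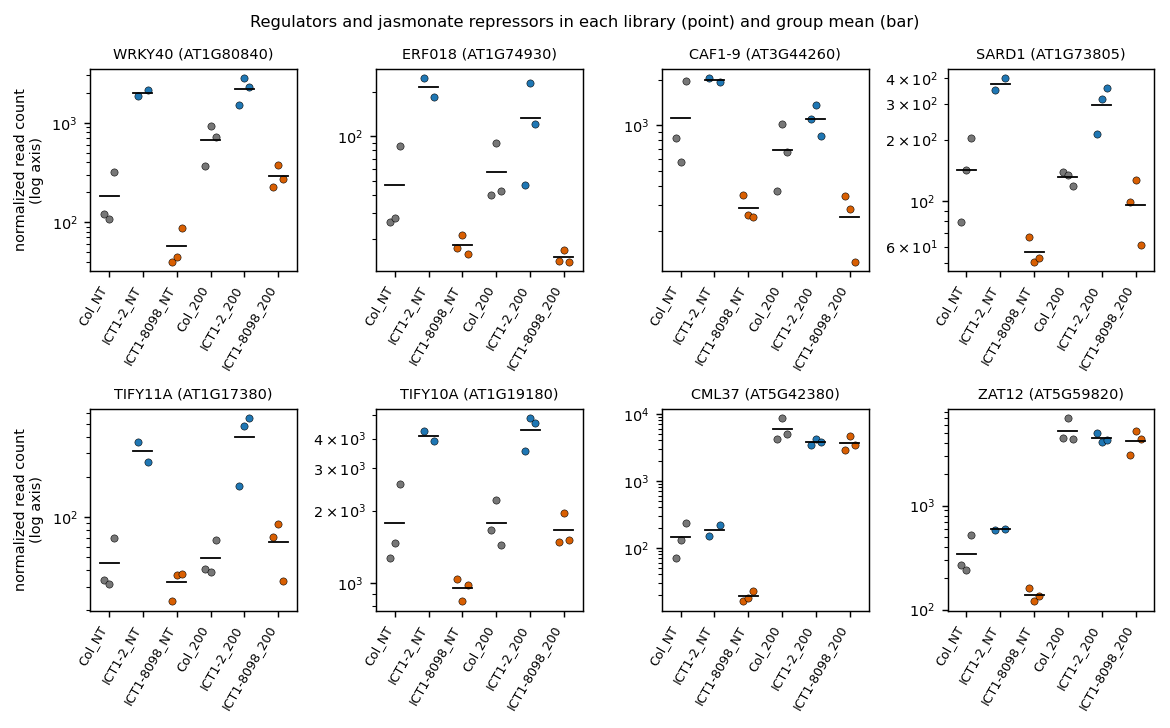
Normalized read counts (log axis) of 8 regulators and response genes in every library (points) of the lines and of Col-0, without and with 200 µM I3C, with group means (bars). WRKY40, ERF018, CAF1-9, SARD1, TIFY11A and TIFY10A are lower in ICT1-8098 both without and with I3C, while CML37 and ZAT12 separate the lines without I3C, where CML37 is at 15.8 to 22.6 against 152 and 218.

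Genes that make indole glucosinolates, the source of I3C in the plant, had differences below 0 in 18 of 18 tested. Over all genes tested, 10382 of 21180 lay below 0. The median of the 18 was -0.71, and 2 were called lower in ICT1-8098, beside 0.382% of all genes tested. CYP79B3, which converts tryptophan to its aldoxime, stood at 493, 663 and 924 in ICT1-8098 and at 2042, 1571 and 1216 in ICT1-2 (-1.23, SE 0.26, adjusted p = 0.0259). GGP1, which processes the glutathione conjugate in the pathway, had 1509, 2488 and 2523 against 5849, 3634 and 3654 (-1.01, adjusted p = 0.0192). In both genes ICT1-8098_200 replicate 2 was the lowest library and ICT1-2_200 replicate 2 the highest. Without either of these, or without ICT1-2_200 replicate 4, 0 were called, and the median was -0.47 without ICT1-8098_200 replicate 2. ASB1, a subunit of anthranilate synthase upstream in tryptophan synthesis, differed by -0.97 (adjusted p = 0.0397). It was the 1 called of 19 tested tryptophan and auxin synthesis genes, beside 0.382% of all genes tested called lower. That list had a median of -0.05, with 10 differences below 0 and 9 above. With 1 library left out, it held a call only without ICT1-8098_200 replicate 4.

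Without I3C the indole glucosinolate genes had a median of 0.16 and CYP79B3 a difference of 0.76 (adjusted p = 0.195). The change of its line difference with I3C, -1.99, was not called (adjusted p = 0.0639). BGLU22, a beta-glucosidase of root endoplasmic reticulum bodies, was lower, at 2769 to 3284 against 5195 to 5626 (-0.82, adjusted p = 0.0473). No gene was called among 19 of aliphatic glucosinolate synthesis (median 0.07) or 8 of camalexin and related indoles (median -0.50).

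In detoxification, GSTU17, a tau-class glutathione transferase, was higher in ICT1-8098, at 203, 176 and 130 against 41.9, 41.6 and 36.8 (2.03, SE 0.30, adjusted p = 0.00209). No library of one line reached the other. The differences from Col_200 were -0.63 (adjusted p = 0.130) in ICT1-8098 and -2.66 (adjusted p = 5.47e-07) in the libraries labelled ICT1-2. Without I3C the lines differed by -0.02 (adjusted p = 0.991), and the change with I3C, 2.06, was not called (adjusted p = 0.105). GSTU12 went the other way, at 32.7, 110 and 151 against 472, 293 and 263 (-2.01, adjusted p = 0.0453). The 39 tested detoxification genes had a median of -0.15, with these 2 called, beside 0.609% of all genes tested.

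Other genes higher in ICT1-8098 had varied roles. AT2G37870, annotated as a lipid-transfer type protein, stood at 519, 396 and 221 against 26.9, 62.9 and 85.7 (2.74, SE 0.52, adjusted p = 0.0169), the largest difference upward among genes chosen by rule. AT2G36090, an F-box gene, had 177, 104 and 72.0 against 38.9, 24.6 and 18.4 (2.03, adjusted p = 0.0188). ATEXPA10, an expansin that loosens cell walls, had 108, 110 and 83.8 against 18.9, 22.9 and 46.4 (1.83, adjusted p = 0.0491). RD22, a gene induced by drought and abscisic acid, had 507, 575 and 651 against 298, 340 and 308 (0.87, adjusted p = 0.0169). It was the 1 called among 28 tested abscisic acid and drought genes, beside 0.227% of all genes tested called higher. Without ICT1-2_200 replicate 2, 4 or 5 or ICT1-8098_200 replicate 3, 0 of the 28 were called. The median of the 28 was 0.58 with I3C and -0.08 without.

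Transport and metabolism genes called higher were AMT1-3, an ammonium transporter (731, 436 and 317 against 185, 138 and 160, 1.54), SPS2, a sucrose phosphate synthase gene (1.19), PSY, which opens carotenoid synthesis (1.03), and PPCK1, the kinase of phosphoenolpyruvate carboxylase (1.06). ATG8B, a protein of autophagosomes, was the 1 called of 19 autophagy genes (0.86, adjusted p = 0.0491), beside 0.227% of all genes tested called higher. With 1 library left out, the autophagy list held a call only without ICT1-8098_200 replicate 4. RVE2, a clock-type MYB gene, differed by 0.76 (adjusted p = 0.0192).

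Among transporter genes that were lower, AT1G14040, a PHO1 family gene, had 251, 374 and 576 against 1653, 1251 and 1574 (-1.97, SE 0.27, adjusted p = 0.000798). Without I3C its difference was -0.25 (adjusted p = 0.789), and the change with I3C, -1.72, was not called (adjusted p = 0.144). LHT7, an amino acid transporter gene, had 58.7, 73.2 and 100.2 against 251, 303 and 347 (-1.97, adjusted p = 0.00342) and was lower without I3C too (-1.62, adjusted p = 0.00768). PUP7 and PUP22, neighbouring purine permease genes with similar sequences, had 20.1, 49.4 and 57.8 against 244, 243 and 218 (-2.57, adjusted p = 0.0203) and 46.1, 57.9 and 56.6 against 226, 227 and 215 (-2.04, adjusted p = 0.0192). PUP14, another permease gene, differed by -1.37 (adjusted p = 0.039).

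VBF, an F-box gene named for binding the protein VIP1, had 83.0, 159 and 47.2 against 576, 902 and 726 (-3.06, SE 0.70, adjusted p = 0.0419). The call of VBF was lost whichever single library of the compared groups was left out. AT5G11070 had 36.9, 47.7 and 22.4 against 111, 308 and 459 (-2.84, adjusted p = 0.0188). CCR2, a reductase of lignin and defence phenolics, had 350, 640 and 462 against 1352, 1214 and 1406 (-1.49, adjusted p = 0.0169).

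Called genes lay next to each other, in the order of tested genes, in 5 runs that hold 11 genes, and every run was lower in ICT1-8098. The longest run (3 genes) and another (2 genes) lie within a row on chromosome 5 between 21363486 and 21387714. In this row 10 genes that carry or are annotated with a heavy-metal-associated domain follow each other over 24229 bases. Such domains bind metals, and several relatives in the row are named HIPP. Of these 10 genes 8 were tested, and 5 were called lower in I3C and 7 without I3C. Over all genes tested, 0.382% were called lower in I3C and 2.06% without it. In all 8 the I3C libraries of the lines did not overlap, which held for 15.6% of all genes tested. The row was picked out after its values had been seen, and neighbours of similar sequence may share reads.

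AT5G52680 had 5.87, 8.51 and 3.54 in ICT1-8098 against 29.9, 133 and 93.7 (-3.45, SE 0.46, adjusted p = 0.000798). AT5G52710 had 30.2, 30.6 and 28.3 against 120, 364 and 381 (-3.06, SE 0.41, adjusted p = 0.000798). AT5G52670 had 73.8, 94.5 and 103.8 against 348, 421 and 356 (-2.04, adjusted p = 0.0169), and AT5G52720 had 57.8, 74.0 and 63.7 against 202, 195 and 199 (-1.60, adjusted p = 0.0151). HIPP13 had 251, 191 and 70.8 against 391, 611 and 677 (-1.85, adjusted p = 0.0192). In each of the 5 every library of ICT1-8098 lay below every library labelled ICT1-2.

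Against Col_200 the genes of the row did not share 1 pattern. AT5G52680 was lower than the wild type in ICT1-8098 (-4.00, adjusted p = 7.87e-07) and differed by -0.54 (adjusted p = 0.434) in the libraries labelled ICT1-2. AT5G52710 was higher than the wild type in the libraries labelled ICT1-2 (2.45, adjusted p = 0.000147) and differed by -0.61 (adjusted p = 0.302) in ICT1-8098. RVE6 (AT5G52660), the gene on the near side of the row, had a difference of 0.31 between the lines (adjusted p = 0.648), and AT5G52770 on the far side was too low to be tested. Leaving out 1 library left 2 to 6 of the 8 called, with 2 without ICT1-2_200 replicate 4 or 5 and 3 without ICT1-8098_200 replicate 2.

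**Figure D4:**
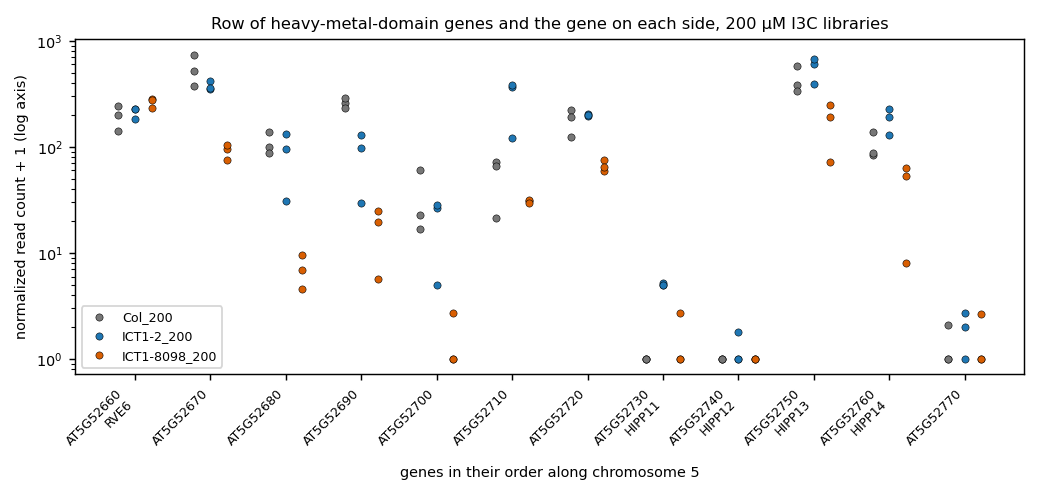
Normalized read counts plus 1 (log axis) of the metal-domain genes in their order along chromosome 5, with the gene on each side, in every 200 µM I3C library of Col-0 and of both lines. For AT5G52670 to AT5G52720 and HIPP13 every ICT1-8098 point lies below every ICT1-2 point, and for the flanking RVE6 the ICT1-8098 points lie slightly above.

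The comparison of the lines without I3C used other libraries (3 of ICT1-8098_NT and 2 labelled ICT1-2_NT) and called more genes, 571 (2.7%), 134 higher (0.633%) and 437 lower (2.06%) in ICT1-8098. Both comparisons came from the same fit and shared each gene's estimate of the spread, so their calls are not independent. Of the 129 genes called in I3C, 44 (34.1%) were called the same way without it, which is 7.71% of the 571, and 0 were called the opposite way. They were 9 of the 48 higher genes and 35 of the 81 lower genes. The sign was the same for 114 of the 129 (88.4%), and of the 571 genes called without I3C 495 (86.7%) had the same sign in I3C. The share with the same sign over all genes tested was not counted. Over all genes tested, the line differences with and without I3C had a Spearman correlation of 0.18. Genes called lower without I3C had a median of -1.71 there and -0.60 in I3C. Those called lower in I3C had a median of -1.41 there and -1.06 without it. Each set was chosen by its own calls, so a weaker median in the other comparison does not show an effect of I3C. Among the 44 are RPS30A, CHS, QQS, WRKY40, TIFY10A, TIFY11A, AT5G52680, AT5G52710 and LHT7.

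The difference of the differences, which asks whether I3C changed the gap between the lines, called 4 genes (0.0189%). CML37, a calmodulin-like gene induced by wounding, had 2933, 4633 and 3381 against 3466, 4175 and 3775 in I3C, where the lines overlapped, and 15.8, 18.1 and 22.6 against 152 and 218 without it. The gap without I3C, -3.22, closed by 3.14 (adjusted p = 0.0335). ZAT12, OXI1 and GRXC9, a stress zinc finger factor, an oxidative-burst kinase and a glutaredoxin, had gaps of -2.09, -2.16 and -3.08 without I3C that changed by 1.99, 1.65 and 2.26 (adjusted p = 0.0392 for each). No other gene is shown to differ in its line gap with I3C, and the call of 4 moved to 0 when ICT1-2_200 replicate 2 or 4, ICT1-8098_200 replicate 3, ICT1-8098_NT replicate 4 or either ICT1-2_NT library was left out, and to 20 without ICT1-8098_200 replicate 4. Without ICT1-2_200 replicate 5 it was 14, without ICT1-8098_200 replicate 2 it was 10, and without ICT1-8098_NT replicate 1 it was 1.

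**Figure D5:**
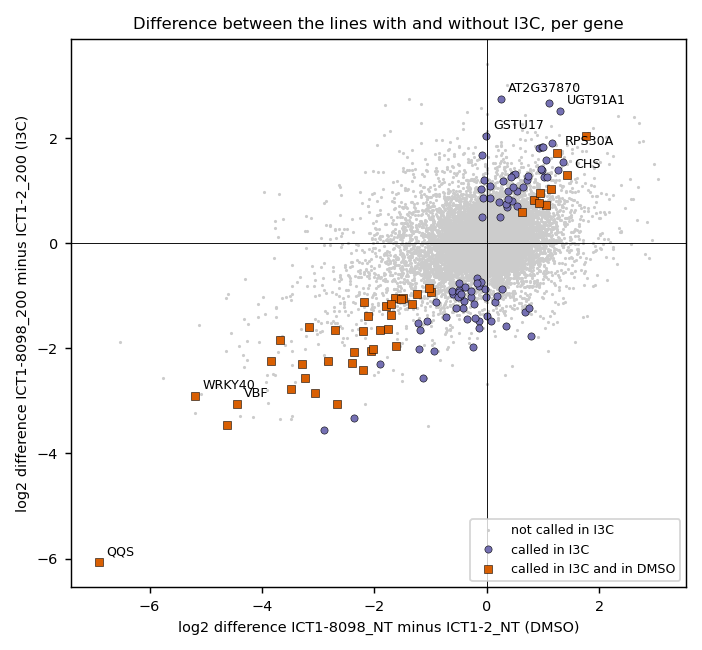
Log2 difference between ICT1-8098 and ICT1-2 without I3C (horizontal axis) and in 200 µM I3C (vertical axis) for each of 21180 genes. Orange squares are the 44 genes called in both comparisons, purple circles the other genes called in I3C, and QQS lies farthest out at -6.90 and -6.07.

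The remaining lists held 0 calls or 1. Of 27 heat shock and protein folding genes 0 were called (median 0.07, and -0.11 to 0.59 with each library left out), and the HSP70 gene MED37C had 23380, 46608 and 49172 against 41943, 34162 and 34030. None was called among 17 sulfur deficiency, 20 iron deficiency, 28 auxin response, 15 unfolded protein response, 23 cell cycle, 17 phosphate, 16 nitrate, 14 circadian clock, 14 suberin, 10 root triterpene and 7 flowering repressor genes. Their medians lay between -0.33 and 0.27, and some moved widely with each library left out: sulfur deficiency from -0.46 to 0.20 and root triterpenes from -0.95 to 0.10. The cell cycle list had 21 differences below 0 and 2 above, beside 10382 of 21180 below 0 over all genes tested. Its median, -0.27, stayed between -0.47 and -0.21. Above 0 lay 14 of the 17 phosphate and 13 of the 16 nitrate genes. The 22 oxidative stress genes held 1 called lower, MSRB9, a methionine sulfoxide reductase (-1.01, adjusted p = 0.0439), beside 0.382% of all genes tested. Without ICT1-2_200 replicate 4 or 5 or ICT1-8098_200 replicate 3 or 4, 0 of the 22 were called. For these lists a missing call does not show that the lines were alike, since the median SE of a gene was 0.22 on the log2 scale.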

How the data were processed

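RNA of roots was sequenced from unstranded TruSeq v2 libraries, per the labels' protocols, so reads of antisense partners cannot be told apart. The submitters' processing notes name the TAIR10 build, DESeq2 1.18.1, TopHat2 2.1.0 and HTSeq 0.6.1. The deposited table packs the normalized counts of a group into 1 cell (other units: the authors' log2 fold change, p-value and adjusted p-value). Each deposited normalized count is a whole number of reads (100% of values within 0.1 reads) divided by a size factor, which gave the depths. The table holds 34262 genes, 6121 without reads, and 26 of 27 libraries were used: ICT1-2_NT replicate 5 is not analysed here. The coordinates of 99.9324% of 32548 genes start as in the reference.

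Genes with at least 10 normalized counts in 3 libraries were tested in R 4.3.3 by limma 3.58.1 with a variance trend, after log2 transformation with a pseudocount of 1, over all 26 libraries and with 1 mean per group, two-sided, with Benjamini-Hochberg adjustment over 21180 genes. The unit differed from the one planned for count tests, so edgeR and DESeq2 were not run here. Alternatives were other scalings, filters and pseudocounts, voom, a replicate block, the compared groups alone, the deposited calls, and each library left out. The test was checked on simulated data.

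Named genes were the 3 S30 genes, the 8 largest differences each way with a mean of at least 100 and no overlap, genes near absent in 1 line (0 found), up to 4 called members of each list, 6 genes called with and without I3C and the genes called in the difference of differences. Other genes were chosen after their values were seen. The members, 30 lists (541 genes, 517 tested) and tests were chosen with earlier results of these data known, and 2 lists were added later. Sequences are RefSeq's (TAIR10.1). Python 3.11.15, numpy 2.4.6, pandas 2.3.3, scipy 1.17.1 and matplotlib 3.10.9 were used.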

Additional observations from a re-analysis of the deposited data

Results flagged for a closer look

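The gap between the lines changed with I3C in 4 genes by a test of the difference itself. The change was 3.14 on the log2 scale for CML37, 1.99 for ZAT12, 1.65 for OXI1 and 2.26 for GRXC9. CML37 stood at 71.7, 133 and 234 in Col_NT and at 4182, 8533 and 5069 in Col_200. In I3C the libraries of the lines overlapped for CML37 and ZAT12. OXI1 had 1903, 2749 and 1873 in ICT1-8098 and 2944, 2904 and 3282 in the libraries labelled ICT1-2, and GRXC9 had 278, 408 and 306 against 438, 621 and 706. Neither was called in I3C by limma, at -0.51 (adjusted p = 0.310) for OXI1 and -0.82 (adjusted p = 0.186) for GRXC9.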

How the results depend on the processing

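All 129 genes kept their sign in every fit that tested them. In I3C the count was 0 with only the compared groups in the fit, 380 in the deposited calls, and 13 to 155 with each library left out in turn. Without I3C (571) it was 957 in the deposited calls and 204 to 467 with each library left out; where 1 ICT1-2_NT library remained, it was assumed to vary like the other groups. The difference of differences (4) gave 12 genes without a filter on low values, 1 with only the compared groups, 16 with the replicate block, 16 with total-read scaling, 11 with a pseudocount of 0.5, 0 with voom, and 0 to 20 with each library left out. Called list members (17) were 11 without a filter, 0 with only the compared groups, 39 in the deposited calls and 3 to 16 with each library left out. Of the 31 named genes 0 were called with only the compared groups and 7 to 22 with each library left out. The replicate block gave 143, 731 and 16 calls, and 105 of the 129 were among the 143. The replicate numbers pair no samples by the labels. The deviations of same-numbered libraries from their group means had r = -0.11 for number 2 and 0.11 for number 4. With 1 pair of libraries behind each value, whether same-numbered libraries share a batch cannot be settled. Total-read scaling moved the median of all genes to 0.04. The planned edgeR and DESeq2 fits were not run. Over single genes and settings, 2105 values kept both direction and side of the threshold, 229 kept direction but lost the call, and 12 newly passed. A further 63 values, called neither way, changed sign (up to 0.31 in size), and no called value did. Depth limits genes such as AT5G52700 and the untested members of the metal-domain row.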

Other observations

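All 129 called genes are protein coding. Of the 592 other genes tested 0 were called, with a smallest adjusted p of 0.0600 in limma, and 34 (5.74%) had an unadjusted p under 0.05, beside 9.52% of all genes tested. The share of tested genes called was 0.629% on chromosome 1 (4 higher and 31 lower in ICT1-8098), 0.492% on chromosome 2 (9 and 7), 0.386% on chromosome 3 (7 and 9), 0.714% on chromosome 4 (6 and 17) and 0.8% on chromosome 5 (22 and 17), beside 0.609% over all genes tested.

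The 251 genes that the authors' deposited table calls beyond the 129 were all tested here, had the same sign and had an unadjusted p under 0.05 in limma. Both sets of calls rest on the same libraries, so this is not independent support. Across all 21180 genes the line difference with and without I3C had a Pearson correlation of 0.33 and a Spearman correlation of 0.18, a description in which all genes come from the same 11 libraries.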
